A study of Rattus norvegicus with 5 samples.

Results

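Sncb, Sncg and Sncaip, which encode 2 synucleins and a synuclein-binding protein, were followed in parietal cortex of rats with kaolin-induced hydrocephalus. Their probes were taken by gene name, with current rat symbols allowed, and every probe was kept apart. There were 4 such probes among 41012 on the array, 1 for Sncb, 1 for Sncg and 2 for Sncaip. All 4 were well above background in both channels on 5 of 5 arrays, none was saturated, and all 4 were among the 29114 probes tested. The genes were selected on their log2 ratios of kaolin over saline in these same arrays, so those ratios are given as a description, without a test.

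Kaolin is a clay that blocks cerebrospinal fluid pathways, after which the brain ventricles widen. Rat pups received kaolin, or saline as the sham control, on postnatal day 1, stayed with their dam, and gave cortex on postnatal day 22, which was post-kaolin day 21. Total RNA of 5 kaolin samples, labelled with Cy3, and of 5 saline samples, labelled with Cy5, was hybridised in pairs on 5 two-colour Agilent rat arrays. The labels name no strain, sex or genotype, and do not say whether a sample was 1 animal or a pool, so the spread given here is that between arrays. The dyes were never exchanged, so dye and treatment cannot be told apart.

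Synucleins are small proteins, some of which lie in the presynaptic terminal and bind the membranes of synaptic vesicles. Sncb encodes beta-synuclein, which is abundant in forebrain terminals, and Sncg encodes gamma-synuclein, best known from peripheral sensory neurons, retinal ganglion cells and certain cortical interneurons. Sncaip encodes synphilin-1, a synuclein-binding protein that is marked with ubiquitin by E3 ligases of the Siah family. Sncaip is therefore a partner of the family and no synuclein itself.

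In the kaolin channel 27956 to 29385 probes per array were well above background, and in the saline channel 27372 to 28930 were. Replicate 5 was on a slide of its own and the other 4 arrays were together on another. Replicate 2 stood apart. Across tested probes, its ratios correlated with those of replicate 1 at -0.37 and with those of replicates 3, 4 and 5 at -0.17, -0.07 and -0.06, while the other pairs of arrays correlated at 0.12 to 0.83. The dyes are stated in the labels, so the direction of replicate 2 was kept. For the members and the gene lists that changed sign, values with its sign turned or without it are given as well.

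The stretches ahead of the start of Sncg and Sncb are shown because the ratios of these related genes lay apart on every array. Each is the 250 bases before the start used in the RefSeq promoter table (GRCr8), read 5′ to 3′ on the gene's strand, with matches to the GC box (GGGCGG, either strand) in capitals. Other RefSeq transcripts of these genes may start elsewhere, so the stretch need not be the one used in cortex.
Sncg, chr16:9711337-9711586, minus strand: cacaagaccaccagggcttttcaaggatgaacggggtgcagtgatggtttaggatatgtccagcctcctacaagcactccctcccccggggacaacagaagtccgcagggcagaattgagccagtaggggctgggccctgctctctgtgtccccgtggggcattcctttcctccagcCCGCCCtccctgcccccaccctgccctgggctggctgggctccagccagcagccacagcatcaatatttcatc
Sncb, chr17:9851684-9851933, plus strand: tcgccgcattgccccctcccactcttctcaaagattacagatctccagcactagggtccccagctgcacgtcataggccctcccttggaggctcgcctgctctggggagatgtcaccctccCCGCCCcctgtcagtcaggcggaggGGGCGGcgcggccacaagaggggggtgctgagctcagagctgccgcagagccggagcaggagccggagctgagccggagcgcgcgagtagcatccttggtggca

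The Sncg stretch held 5 CpG dinucleotides and was 61.6% G and C, while that of Sncb held 16 and was 67.2%. Over all 33469 stretches of that length in the table the medians were 5 CpG and 51.2%. A GC box was found 1 time ahead of Sncg, 73 bases before the start, and 2 times ahead of Sncb, 129 and 104 bases before it, and 30.5% of all stretches held one. Ahead of both genes there was no match, on either strand, to a TATA box (TATAAA, in 12.9% of all stretches), a CCAAT box (CCAAT, in 34%), a cyclic AMP response element (TGACGTCA, in 1.59%), an AP-1 site (TGANTCA, in 6.34%), a STAT site (TTCNNNGAA, in 7.67%) or the E-box CACGTG (in 5.59%). The matches did not overlap each other. They are descriptions of letters and not evidence of binding.

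Sncg was the member with the largest ratio. Its 60-base probe, A_44_P384017, lies at chr16:10026224-10026283 on the minus strand of rn4, per the array files. The normalised Sncg level in the kaolin channel was 451, 469, 384, 466 and 390 intensity units on replicates 1 to 5, against 353, 255, 159, 187 and 179 in the saline channel. Every kaolin level was above every saline level. The same held for 1.45% of the tested probes, and the opposite, every kaolin level below every saline level, for 1.61%. Nothing is read from these shares, because the gene was selected on this comparison. On replicate 1 the saline level came nearest to the kaolin levels.

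The log2 ratio of kaolin over saline for Sncg was 0.35, 0.88, 1.27, 1.32 and 1.12 on replicates 1 to 5. It was positive on 5 of 5 arrays, as for 6.22% of the tested probes, and was smallest on replicate 1. The mean was 0.99 ± 0.40 (SD, n = 5), a 1.98-fold value. In rank it stood at 154 of the 29114 tested probes, counted from the highest mean ratio. With the sign of replicate 2 turned the mean was 0.64, and without replicate 2 it was 1.02. In bulk tissue, more cells that express Sncg and more Sncg RNA per cell cannot be told apart.

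**Figure D1:**
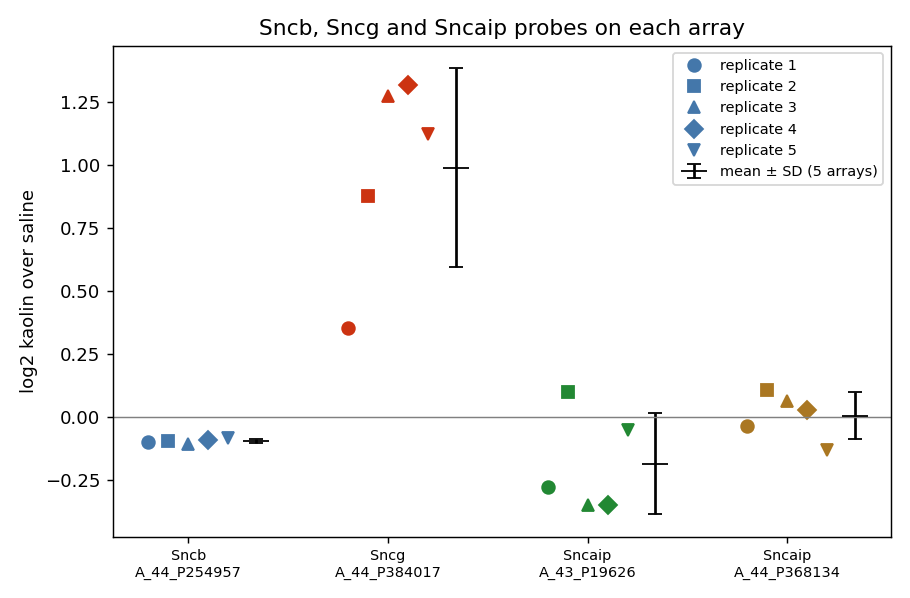
Log2 ratio of kaolin over saline (vertical axis) for each member probe (horizontal axis), with a symbol for each of the 5 arrays and a black bar for the mean with its SD. The Sncg probe lies between 0.35 and 1.32, above every value of the other 3 probes, and the Sncb probe lies between -0.11 and -0.08.

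Between arrays the Sncg level varied less in the kaolin channel than in the saline channel. The log2 level had an SD of 0.14 for kaolin and of 0.47 for saline over the 5 arrays. Without replicate 1, which had the highest saline level, these were 0.16 for kaolin and 0.29 for saline. The highest kaolin level was 1.22 times the lowest, and the highest saline level 2.23 times the lowest. Over the 29114 tested probes the median SD was 0.18 for kaolin and 0.13 for saline, and the saline SD was the larger in 30.2% of them. As scanned, before any correction, the Sncg spot read 287 to 369 units for kaolin and 198 to 445 units for saline.

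Sncb had a ratio close to 0 with a narrow spread between arrays after loess normalisation. Its probe, A_44_P254957, is placed at chr17:15908423-15911560 on rn4, a span of 3138 bases that is longer than the probe. The kaolin level was 5432, 5340, 5264, 5191 and 4696 on replicates 1 to 5, against saline levels of 5824, 5700, 5673, 5532 and 4978. The channels overlapped across arrays, and on each array the kaolin level was slightly the lower. On the log2 scale the Sncb ratio was -0.10, -0.09, -0.11, -0.09 and -0.08, with a mean of -0.10 ± 0.0090 (SD, n = 5), a 0.936-fold value. It was negative on 5 of 5 arrays, as for 6.64% of the tested probes.

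The SD of the Sncb ratio was smaller than the median SD of 0.21 over tested probes. The size and the spread of the Sncb ratio changed with the processing. Centring each array on its median in place of loess gave a mean of -0.33 ± 0.074, with values from -0.42 to -0.23. The processed signals, with each array centred on its median, gave -0.084 ± 0.075 (SD, n = 5 each). There the ratio was negative on 4 of 5 arrays, with 0.0060 on replicate 5. The scanner software's own log ratio, without that centring, gave -0.095 ± 0.014 and was negative on 5 of 5 arrays. Turning the sign of replicate 2 gave -0.058, and leaving that array out gave -0.096. Its 1 spot per array read 3858 to 4489 units for kaolin and 5810 to 7717 units for saline as scanned.

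**Figure D2:**
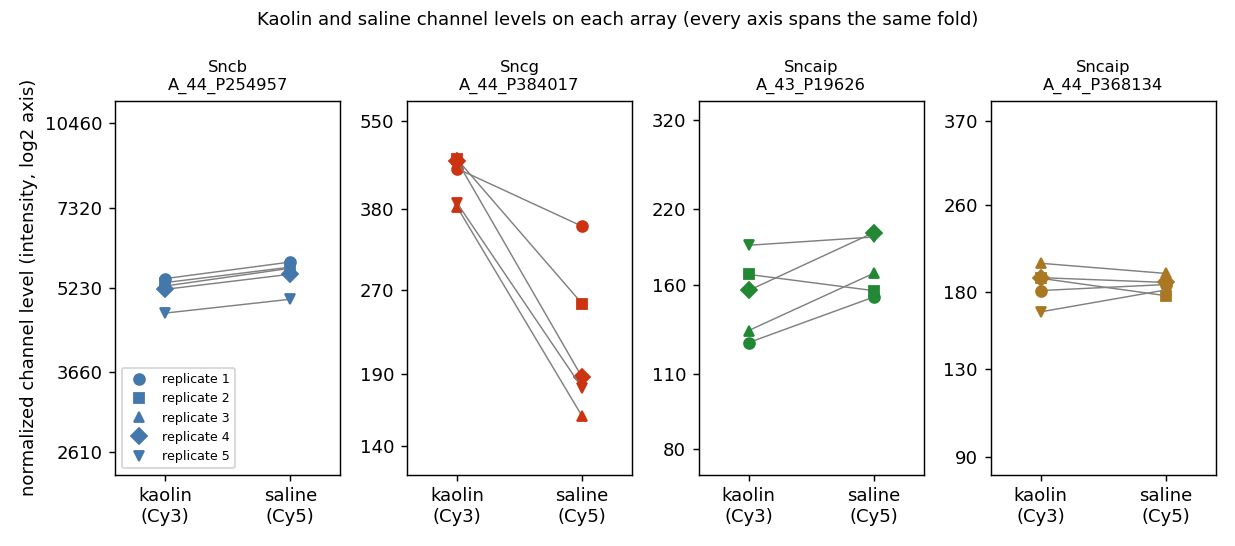
Normalised level of each member probe in the kaolin channel (left in each panel) and the saline channel (right), in intensity units on a log2 axis that spans the same fold in every panel, with a line joining the channels of each of the 5 arrays. The 5 Sncg lines all descend from kaolin to saline and fan out at the saline end, where levels run from 159 to 353, while the Sncb lines are nearly parallel.

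Sncaip was read by a pair of probes that did not share a direction on every array. The probe A_43_P19626 lies at chr18:48222306-48222365 and A_44_P368134 at chr18:48250717-48250776, both on the plus strand of rn4. For A_43_P19626 the kaolin level was 125, 167, 132, 156 and 189 on replicates 1 to 5, against saline levels of 152, 156, 168, 199 and 196. Its log2 ratio was -0.28, 0.10, -0.35, -0.35 and -0.05, negative on 4 of 5 arrays, with a mean of -0.19 ± 0.20 (SD, n = 5). The kaolin and saline levels of this probe overlapped.

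For the Sncaip probe A_44_P368134 the kaolin level was 181, 191, 203, 191 and 166 on replicates 1 to 5, against saline levels of 186, 177, 195, 188 and 182. Its log2 ratio was -0.04, 0.11, 0.06, 0.03 and -0.13, positive on 3 of 5 arrays, with a mean of 0.0053 ± 0.09 (SD, n = 5). The channels overlapped here too, and the mean lay well within the spread between arrays. It was negative under 5 of the 14 alternative settings that could move it, among them without replicate 2 (-0.020) and with the sign of that array turned (-0.037). For A_43_P19626 these means were -0.26 without replicate 2 and -0.23 with its sign turned.

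The Sncaip probes had the same sign on 3 of 5 arrays. Their log2 ratios differed, A_43_P19626 minus A_44_P368134, by -0.24, -0.0070, -0.41, -0.38 and 0.08, with a mean of -0.19 ± 0.22 (SD, n = 5). Both were dim: after local background was subtracted, A_43_P19626 had 49 to 123 units for kaolin and 92.2 to 162 for saline, and A_44_P368134 had 93.6 to 116.5 for kaolin and 114 to 181 for saline. The saline signal of Sncg, 139 to 398 units after the same subtraction, was in part as dim. The offset of 50 is added to both channels, which by construction draws the ratios of dim spots towards 0. With no offset the means were 1.21 for Sncg, -0.27 for A_43_P19626 and 0.019 for A_44_P368134. In the software's own log ratio the A_43_P19626 mean was -0.31, and in the processed signals with each array centred on its median it was -0.30. The A_44_P368134 means there were 0.03 and 0.041.

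The ratio of Sncg lay above those of the other members on every array. The Sncg log2 ratio exceeded that of Sncb by 0.45, 0.97, 1.38, 1.41 and 1.21 on replicates 1 to 5, with a mean of 1.08 ± 0.39 (SD, n = 5). It exceeded the A_43_P19626 ratio of Sncaip by between 0.63 and 1.67, and the A_44_P368134 ratio by between 0.39 and 1.29. Each of these differences was positive on 5 of 5 arrays. They are a description, since the genes were selected on these ratios.

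**Figure D3:**
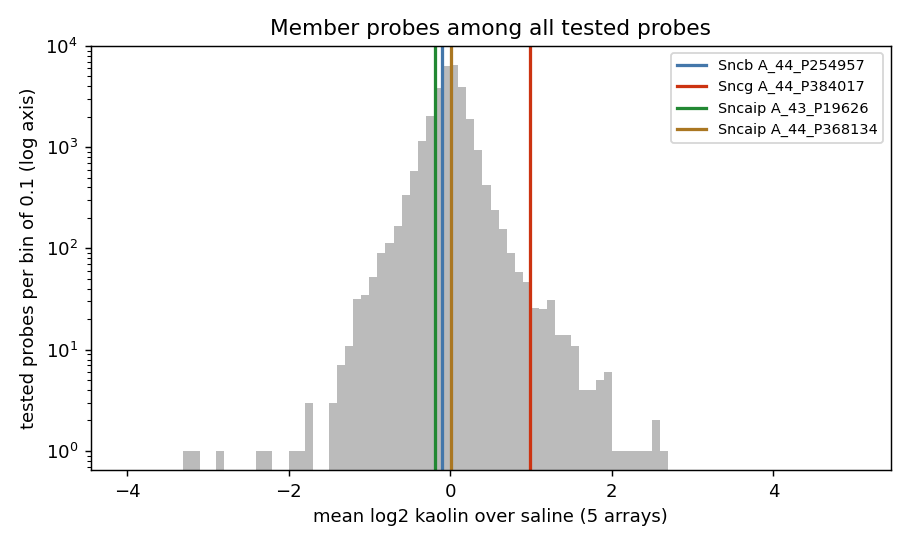
Number of tested probes (vertical axis, log scale) in bins of mean log2 ratio of kaolin over saline (horizontal axis), with a vertical line for each member probe. The Sncb and Sncaip lines, between -0.19 and 0.0053, stand near the peak of the distribution and the Sncg line, at 0.99, stands on its right flank.

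In limma the adjusted threshold of 0.05 was passed by 0 of 29114 tested probes (0%), the smallest adjusted p being 0.243. At an unadjusted p of 0.05, 5279 tested probes passed (18.1%). No call or p is given for the member probes under any setting, because they were selected on this comparison. The count over all probes changed with the arrays and their weights. Without replicate 2, 1536 of 29113 probes passed the adjusted threshold (5.28%), and without replicate 1 it was 1 (0.00343%). With array weights 3483 passed (12%), with the sign of replicate 2 turned 489 (1.68%), and with median centring 22 (0.0756%).

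The genes that work with synucleins at the terminal were read from a list of 16 chaperones and SNARE-related vesicle proteins, of which 15 were tested. In limma 0 of the 15 passed the adjusted threshold in either direction, against 0 of 12043 genes (0%). At an unadjusted p of 0.05, 5 of them passed with lower values in kaolin and 0 with higher values, where 794 genes (6.59%) were lower and 1478 (12.3%) higher. The list median on replicates 1 to 5 was -0.32, 0.07, -0.23, -0.10 and -0.27, negative on every array but replicate 2, with a mean of -0.17 ± 0.16 (SD, n = 5). The same median over all 12043 genes was 0.02 ± 0.02. Taken over the genes' means, the list median was -0.18, and under median centring it was -0.41, where the median of all tested probes was -0.096.

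The lowest gene of that list was Cplx2, a complexin, with a mean log2 ratio of -0.37 ± 0.30. Next came Hspa8, a chaperone that takes part in SNARE assembly, with -0.33 ± 0.17 (SD, n = 5 each). Hspa8 was negative on 5 of 5 arrays, but 2 of its 3 other tested probes had the opposite sign. The highest were Vamp2, the vesicle SNARE, at 0.07 ± 0.27, and Nsf, the ATPase that takes SNARE complexes apart, at 0.07 ± 0.16. Both were positive on 2 of 5 arrays. Both means were negative under median centring (-0.20 for Vamp2 and -0.12 for Nsf) and with the sign of replicate 2 turned (-0.14 and -0.013), and Vamp2 also without replicate 2 (-0.045).

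For Sncaip, a list of 15 ubiquitin ligases, kinases and partners of synphilin-1 had 14 tested genes, of which 0 passed the adjusted threshold in limma in either direction. At an unadjusted p of 0.05, 4 were lower and 0 higher, where 6.59% of all genes were lower and 12.3% higher. The list median was -0.10, -0.013, -0.12, -0.08 and -0.15 on replicates 1 to 5, with a mean of -0.09 ± 0.05 (SD, n = 5). All 5 values were negative, and 7 genes had positive and 7 negative means. Over the genes' means the median was -0.063, and -0.31 under median centring. The lowest were Csnk2b, the regulatory subunit of casein kinase 2, at -0.50 ± 0.40, and Lrrk2, a kinase linked to Parkinson's disease, at -0.40 ± 0.42. The highest were Pink1, a mitochondrial kinase, at 0.16 ± 0.19 and Csnk2a1, a catalytic subunit of casein kinase 2, at 0.11 ± 0.17. Pink1 was at -0.11 under median centring.

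A list of 11 genes held kinases of synucleins, phosphatase subunits and phospholipases, and all 11 were tested. Of these 0 passed the adjusted threshold in limma in either direction. At an unadjusted p of 0.05, 2 were higher and 1 was lower, against shares of 12.3% higher and 6.59% lower among all genes. The list median was -0.05, 0.06, 0.01, 0.17 and -0.04, with a mean of 0.03 ± 0.09 (SD, n = 5), so its sign changed between arrays. Over the genes' means the median was 0.082. It was -0.15 under median centring, where the median of all tested probes was -0.096. The list median was -0.020 with the sign of replicate 2 turned and 0.0095 without replicate 2. Pld2, a phospholipase D, was lowest at -0.41 ± 0.28, followed by Plk3, a polo-like kinase, at -0.09 ± 0.18. Csnk1d, a casein kinase 1, was highest at 0.21 ± 0.18, positive on 5 of 5 arrays, and Pld1 followed at 0.20 ± 0.28. Csnk1d, Pld2 and Plk3 each had another tested probe of the opposite sign. So did the other gene counted as higher, so every gene in these unadjusted counts had such a probe.

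Because Sncg marks, in mouse, a class of cortical interneurons that also make cholecystokinin, 12 genes of Cck and Vip interneurons were read beside it, of which 8 were tested. In limma 0 of the 8 passed the adjusted threshold, and at an unadjusted p of 0.05 1 was higher and 2 were lower (12.3% and 6.59% of all genes). The list median was 0.14, -0.11, -0.09, -0.0065 and -0.09 on replicates 1 to 5, with a mean of -0.03 ± 0.10 (SD, n = 5). It was positive on replicate 1 alone, and 4 genes had positive and 4 negative means. The part of these interneurons in the Sncg ratio was not tested. Over the genes' means the median was -0.0065, and it was -0.22 under median centring, 0.016 without replicate 2 and 0.021 with the sign of replicate 2 turned. Cnr1, the cannabinoid receptor of these cells, was lowest at -0.61 ± 0.36 and negative on 5 of 5 arrays, and Crh, a neuropeptide, stood at -0.48 ± 0.40. Cxcl14, a chemokine, was highest at 0.49 ± 0.54, with -0.10 on replicate 2, and Calb2, the calcium-binding calretinin, stood at 0.14 ± 0.13, and at -0.051 under median centring.

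**Figure D4:**
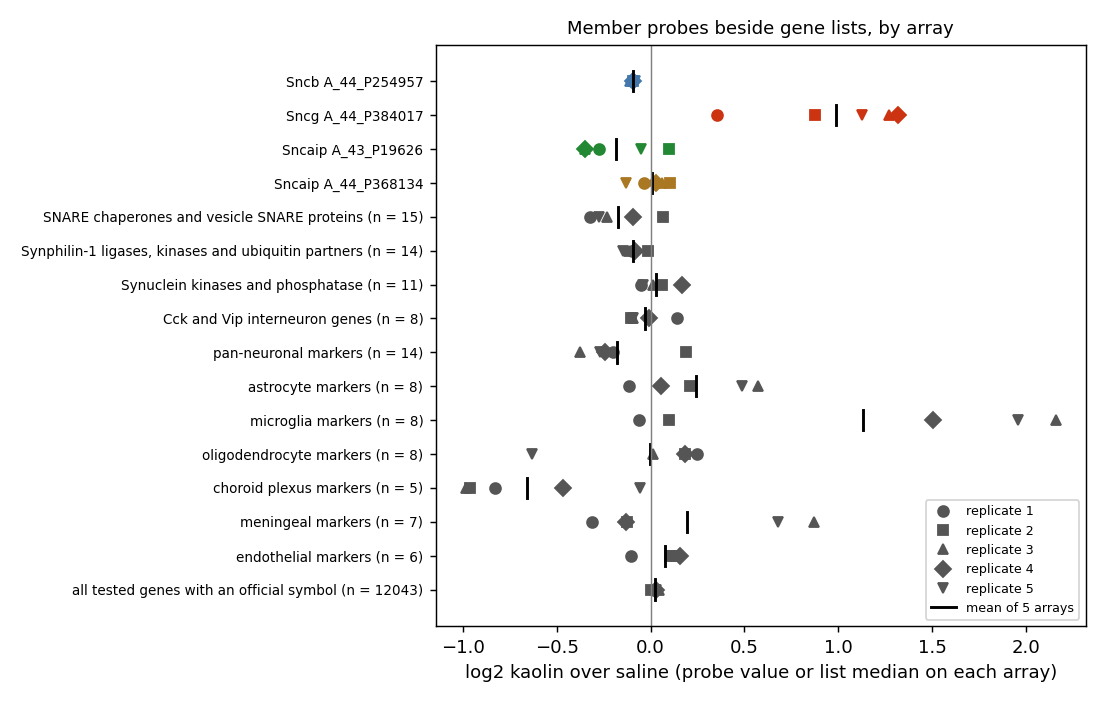
Log2 ratio of kaolin over saline (horizontal axis) on each of the 5 arrays for the member probes (top rows, coloured) and as the median of each gene list (grey, with the number of tested genes), with a black tick at the mean of the arrays. The Sncg points lie between 0.35 and 1.32, the microglial medians between -0.06 and 2.16, and the medians of all genes between 0.0020 and 0.04.

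The markers of other cell types were read beside Sncg, and in limma 0 genes of any of the 7 marker lists passed the adjusted threshold. At an unadjusted p of 0.05, 8 of 8 microglia and 3 of 8 astrocyte markers were higher in kaolin, and 3 of 5 choroid plexus, 1 of 14 pan-neuronal and 1 of 8 oligodendrocyte markers were lower. Of these, the choroid plexus marker Otx2 was well above background on 4 of 5 arrays in saline and 1 in kaolin. It was tested through the channel where it was high, so its place in this count was partly set by the filter. None of 7 meningeal or 6 endothelial markers passed in either direction. Among all genes 12.3% were higher and 6.59% lower. The median of 8 microglia markers was -0.06, 0.10, 2.16, 1.50 and 1.96 on replicates 1 to 5, and 8 of 8 had positive means. Gfap had log2 ratios of 0.39, 0.60, 2.81, 2.32 and 2.95 (mean 1.81 ± 1.23, SD, n = 5). It was the highest of 8 astrocyte markers, of which 4 had positive and 4 negative means. The astrocyte list median was -0.11, 0.21, 0.57, 0.06 and 0.49, lower on replicate 4 than on replicate 2. Sncg shared with the microglial median and Gfap, but not with that list median, its higher values on replicates 3, 4 and 5. On replicate 2 Sncg was at 0.88, where the microglial median was 0.10. The part of these cells in the Sncg ratio was not tested.

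Of the pan-neuronal markers, 14 of 14 were bright enough to be tested. So were 12043 of all 15172 genes with a current symbol, so this does not check the tissue label. The pan-neuronal markers had medians of -0.20, 0.19, -0.37, -0.24 and -0.27, with 13 negative means. The Sncg ratio was positive on every array, whatever the sign of these medians. Nothing is read from this, because the gene was selected on this comparison. Over the 5 arrays the means of the list medians were 0.24 ± 0.29 for astrocyte, -0.0025 ± 0.36 for oligodendrocyte, -0.66 ± 0.40 for choroid plexus, 0.20 ± 0.54 for meningeal and 0.08 ± 0.10 for endothelial markers (SD, n = 5 each). Under median centring the pan-neuronal median over the genes' means was -0.47 in place of -0.19. Those of the astrocyte (-0.11), oligodendrocyte (-0.24) and endothelial (-0.032) lists were negative there in place of positive. The median of all tested probes was itself -0.096 under median centring. The oligodendrocyte median was also negative without replicate 2 (-0.015) and with its sign turned (-0.049). The choroid plexus median over the genes' means was -0.54. It was -1.36 in the processed signals with each array centred on its median, and -1.37 in the software's log ratio. Choroid plexus was read from 5 of 7 markers, all with negative means, and meninges from 7 of 7, all with positive means. The choroid plexus markers Otx2 and Clic6 were tested through the saline channel, being well above background in kaolin on 1 and 0 arrays. Their negative means were therefore partly set by the filter. The meningeal median over the genes' means was 0.15, and it was -0.025 without replicate 3. The choroid plexus median was -0.83, -0.96, -0.99, -0.47 and -0.06 on replicates 1 to 5. The meningeal median was -0.31, -0.13, 0.87, -0.13 and 0.68. The part of neurons, choroid plexus and meninges in the Sncg ratio was not tested.

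The genes whose 5 ratios were nearest to those of each member, by root mean square difference in log2 among 12042 genes, differed between members. For Sncg they were RT1-CE10, a class I histocompatibility gene, at a difference of 0.18, and Des, the muscle and pericyte intermediate filament desmin, at 0.33. RT1-CE10 had ratios of 0.32, 0.56, 1.15, 1.28 and 1.34 on replicates 1 to 5, with its low values on replicates 1 and 2. For Sncb they were Ccdc107 and L3hypdh, each at 0.03, and for the brighter Sncaip probe, A_44_P368134, Gltpd2 at 0.03 and Slc22a14 at 0.04. The ratios of these 4 genes ran from -0.11 to 0.11.

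The genes next to each member on its chromosome, 2 on each side among named protein-coding genes in the order of GRCr8, were looked up by position alone, after the data were seen. Of these 12 neighbours 7 had a tested probe, with mean log2 ratios from -0.08 to 0.29. Beside Sncg, Mmrn2, an endothelial matrix gene, was at 0.03 ± 0.65, Bmpr1a, a bone morphogenetic protein receptor, at 0.28 ± 0.18 and Glud1, glutamate dehydrogenase, at -0.08 ± 0.17 (SD, n = 5 each). Mmrn2 ran from -0.99 on replicate 1 to 0.78 on replicate 2, and Bmpr1a was positive on 5 of 5 arrays. All of these means were below the Sncg mean of 0.99.

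The Sncg ratio was positive on 5 of 5 arrays under each way of background correction and normalisation that was run. Of the 7 shown, the authors' table and the software's own log ratio held the same member values within 0.001 and count as 1. In the authors' deposited table of log2 ratios it was 0.44, 1.12, 1.67, 1.82 and 1.37, with a mean of 1.28 ± 0.54 over these arrays (SD, n = 5), and median centring in place of loess gave the lowest mean, 0.87 ± 0.46. Replicate 1 was lowest in each of them, at 0.091 under median centring. The Sncb mean was between -0.096 and -0.084 in all of them but median centring in place of loess.

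**Figure D5:**
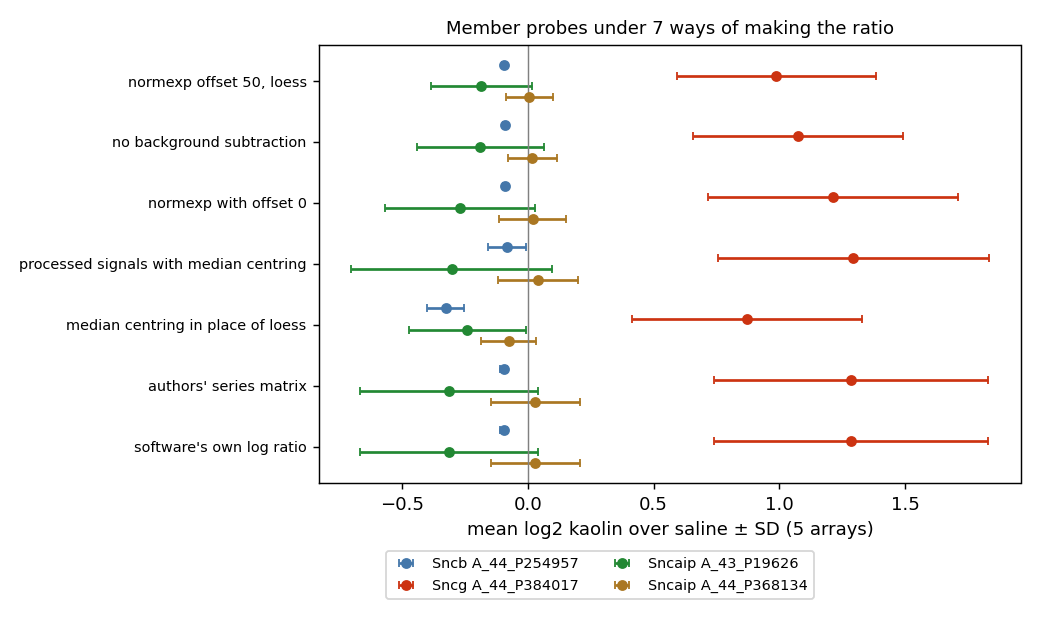
Mean log2 ratio of kaolin over saline with its SD over 5 arrays (horizontal axis) for each member probe under 7 ways of background correction and normalisation (rows), of which the authors' matrix and the software's log ratio hold the same values. Sncg means run from 0.87 to 1.29 and those of the other probes from -0.33 to 0.041.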

How the data were processed

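RNA of 5 kaolin and 5 saline cortex samples was read on 5 two-colour Agilent arrays. Per the file headers, Agilent Feature Extraction 10.1.1.1 wrote the deposited spot values. These are the mean spot and local background signals as raw intensity, processed signals as background-subtracted, dye-normalized intensity, and a log10 ratio of Cy5 over Cy3 per the file headers. Spot flags, per those headers, are other values of 0 or 1. The authors also deposited log2 values in a series matrix. Per array, 99.7% to 99.9% of tested probes there were within 0.001 of the software's own ratio, turned to kaolin over saline on the log2 scale. For nearly all tested probes the table therefore holds that software's normalization. Over all probes 84.8% to 87.9% were as near, and the correlation was 0.978 to 1.00. Column medians of that table were 0.02, -0.05, -0.02, 0.09 and -0.10.

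Outlier spots were left out (86 to 147 per array). Signals were corrected with normexp (offset 50) and loess within each array, control spots having weight 0, in limma 3.58.1 under R 4.3.3. Channel levels were then made comparable between arrays by Aquantile. A probe was tested if either channel was well above background on 3 or more arrays. The test was lmFit with eBayes of the mean ratio against 0, two-sided, adjusted by Benjamini-Hochberg, and the fit was tested on simulated data. Of 41012 probes, 19379 had a current symbol. A gene of a list was its brightest tested probe, and 103 of 112 listed genes were tested.

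The members and the 11 gene lists were chosen with earlier results of these data known. Named were every member probe, the 2 highest and 2 lowest genes of each of the 4 pathway lists (those with fewer than 4 genes past the threshold), the 2 genes nearest to each member, and Gfap. The genome neighbours were added to these, and Otx2 and Clic6 where their dim kaolin channel limits a count. Marker lists are given as counts and medians. Promoter sequences came from RefSeq (GRCr8), where all 3 genes matched by symbol. Probe positions on rn4 come from the scanner files, and exon or UTR positions were not analysed here. Alternatives changed background correction, normalization, dim-probe filter, outlier spots, weights, slide block, the sign of replicate 2 and the arrays used. The number of arrays limits the precision.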

Additional observations from a re-analysis of the deposited data

Results flagged for a closer look

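Among 40 sets of 5 values examined for a sample far from the others, 3 stood out, where chance gives about 1 in 20. The oligodendrocyte list median was -0.63 on replicate 5, against 0.01 to 0.25 on the other arrays. The endothelial list median was -0.11 on replicate 1, against 0.10 to 0.16 elsewhere. Pld1 had a log2 ratio of -0.29 on replicate 1, against 0.27 to 0.43 elsewhere. None of the ratios or channel levels of Sncb, Sncg and Sncaip stood out in this way.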

How the results depend on the processing

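Among 17 alternative settings, 2 filters on probes cannot move a member and the authors' table repeats the software's ratio. Over the other 14 the mean log2 ratio of Sncg ran from 0.64 to 1.29, that of Sncb from -0.33 to -0.058, and those of the Sncaip probes from -0.31 to -0.14 (A_43_P19626) and from -0.076 to 0.041 (A_44_P368134). Sncg and both Sncaip probes moved by less than the SD between arrays. Sncb, with an SD of only 0.0090, moved by more under 3 settings. These were the processed signals with each array centred on its median (-0.084), median centring in place of loess (-0.33) and the sign of replicate 2 turned (-0.058). Turning a sign moves the mean by construction. The software's own log ratio, without centring of the processed signals, gave -0.095. The cause of the move under median centring in place of loess was not tested. Leaving out 1 array gave 0.91 to 1.15 for Sncg, -0.10 to -0.09 for Sncb, -0.26 to -0.14 for A_43_P19626 and -0.02 to 0.04 for A_44_P368134.

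In limma 0 probes passed the adjusted threshold (5279 at an unadjusted p of 0.05). With median centring 22 passed (0.0756%), with array weights 3483 (12%) and with the sign of replicate 2 turned 489 (1.68%). Leaving out 1 array gave 0 to 1536 probes (up to 5.28%). Of the 103 tested genes on the lists 0 passed, against 21 with array weights and 3 with the sign of replicate 2 turned. When 1 array was left out, 0 to 13 list genes passed. For probes and for list genes the highest of these leave-out counts came without replicate 2. Slide as a random block gave 0 probes. Under median centring the median of all tested probes was -0.096. Vamp2, Nsf, Pink1 and Calb2 changed sign under median centring (-0.20, -0.12, -0.11 and -0.051), Vamp2 and Nsf with the sign of replicate 2 turned (-0.14 and -0.013), and Vamp2 without replicate 2 (-0.045, in a range up to 0.13 over the arrays left out). Of the 17 named genes, 10 turned or moved by over 1.5 times under median centring, 7 with the sign of replicate 2 turned and 2 without that array; of the 11 list medians, 9, 5 and 3 did. The ratio of each array is itself a pair of samples, and no further pairing was fitted. Dim spots of Sncaip and of Sncg in saline limit those ratios.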
